A study of Mus musculus with 17 samples.

Results

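The developmental transcription factor genes described here belong to the Hox, Sox, Gata, Nkx, Lhx, Tbx, Irx, Dlx and Pax families, without Pax5, and to the Six-family homeobox genes. Accessible regions were taken as members when the gene with the nearest annotated start was one of these genes, the start lay within 50000 bp and the region lay on an autosome. This gave 165 regions at 72 gene symbols, of 64244 autosomal regions and 66177 regions in all. The farthest member lay 42673 bp from its start and the nearest region left out lay 50210 bp away. Accessibility was measured by ATAC-seq, in which a transposase inserts sequencing adapters into open chromatin, in 3 cell types of young adult mice: nB (naive B cells), GCB (B cells of germinal centers) and BMPC (plasma cells of the bone marrow).

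All mice carried floxed alleles of Dnmt3a and Dnmt3b, the de novo DNA methyltransferases (Dnmt3a fl/fl Dnmt3b fl/fl, on a mixed B6;129S4 background). Dnmt3-deficient mice (KO) were heterozygous for a Cre allele expressed in B cells from the pro-B cell stage, and Dnmt3-sufficient mice (C) lacked it. Effects of the Cre allele and of the deletion thus cannot be told apart. The nB were B220+ Fas- GL7- lymph node cells of unimmunized males, with 3 C and 2 KO libraries. The GCB were B220+ Fas+ GL7+ cells that bound phycoerythrin (PE), taken from lymph nodes 30 days after immunization with PE in adjuvant. Each GCB library came from pooled mice, with 2 C libraries (female pool F2, male pool M1) and 4 KO libraries (female pools F1, F2 and F3, male pool M1). The BMPC were CD138+ bone marrow cells of females, also at 30 days, with 3 C and 2 KO libraries. Cell type, sex, tissue and immunization thus changed together between nB and BMPC and cannot be told apart. Between nB and GCB, cell type changed together with immunization, pooling and the mix of sexes, which cannot be told apart either. The same holds between GCB and BMPC for cell type, tissue, pooling and the mix of sexes. C and KO GCB also differed in their mix of sexes.

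These families are defined by the DNA-binding domains of their proteins. Among these are the homeodomain of Hox, Lhx, Nkx, Six-family, Irx and Dlx proteins and the paired domain of Pax. Others are the HMG box of Sox, the T-box of Tbx and the zinc fingers of Gata proteins. The families set body axes, organs and cell lineages in the embryo. In cells that do not use them, their CpG-rich starts are commonly held silent by Polycomb proteins, and a few, such as Tbx21, Gata3, Sox4 and Hoxb4, have known roles in blood or lymphoid cells.

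Sequences of 7 regions on which the results turn are shown as windows of 300 bases of the mm9 genome, 5′ to 3′ on the forward strand, with each CG dinucleotide, the target of the Dnmt3 enzymes, in capitals. The first 3 are regions that rose in GCB, of which Sox7 and Irx4 were near 0 in nB and BMPC.

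Lhx6, chr2:35946822-35947121 (27 CG): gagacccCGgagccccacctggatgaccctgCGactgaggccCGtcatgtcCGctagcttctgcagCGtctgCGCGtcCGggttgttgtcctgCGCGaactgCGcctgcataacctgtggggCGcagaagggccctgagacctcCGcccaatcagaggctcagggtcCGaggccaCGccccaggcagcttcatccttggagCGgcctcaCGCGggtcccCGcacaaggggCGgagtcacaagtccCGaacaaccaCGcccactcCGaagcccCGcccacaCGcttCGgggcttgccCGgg
Sox7, chr14:64529016-64529315 (2 CG): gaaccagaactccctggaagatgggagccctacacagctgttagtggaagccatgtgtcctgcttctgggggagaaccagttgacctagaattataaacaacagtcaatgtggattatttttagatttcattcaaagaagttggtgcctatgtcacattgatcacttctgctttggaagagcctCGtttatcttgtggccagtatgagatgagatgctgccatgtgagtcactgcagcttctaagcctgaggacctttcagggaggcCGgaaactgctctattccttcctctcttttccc
Irx4, chr13:73408996-73409295 (10 CG): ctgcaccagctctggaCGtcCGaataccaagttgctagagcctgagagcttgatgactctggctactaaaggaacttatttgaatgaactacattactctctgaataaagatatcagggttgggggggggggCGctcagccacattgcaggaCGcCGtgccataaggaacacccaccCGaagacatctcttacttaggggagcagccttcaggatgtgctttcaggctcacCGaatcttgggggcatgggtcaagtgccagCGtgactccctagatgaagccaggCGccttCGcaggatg

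The next lies in the Hoxd cluster, at a transcript antisense to Hoxd3, and rose in both GCB and BMPC.

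Hoxd3os1, chr2:74553882-74554181 (15 CG): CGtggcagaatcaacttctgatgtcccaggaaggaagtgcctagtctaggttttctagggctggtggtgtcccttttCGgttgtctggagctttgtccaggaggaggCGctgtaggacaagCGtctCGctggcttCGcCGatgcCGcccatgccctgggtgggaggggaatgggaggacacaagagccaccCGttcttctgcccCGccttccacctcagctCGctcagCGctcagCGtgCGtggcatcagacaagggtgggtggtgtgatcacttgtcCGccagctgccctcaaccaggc

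The last 3 fell from nB, Sox4 in both other cell types, Sox5 in BMPC and Tbx21 in GCB.

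Sox4, chr13:29045583-29045882 (22 CG): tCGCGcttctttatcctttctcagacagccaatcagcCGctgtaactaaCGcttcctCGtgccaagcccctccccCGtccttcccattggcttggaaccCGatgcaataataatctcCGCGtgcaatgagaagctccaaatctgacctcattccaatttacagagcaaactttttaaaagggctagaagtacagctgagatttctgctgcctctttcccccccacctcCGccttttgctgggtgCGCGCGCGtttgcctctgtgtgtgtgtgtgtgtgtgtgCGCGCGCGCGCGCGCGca
Sox5, chr6:144766327-144766626 (2 CG): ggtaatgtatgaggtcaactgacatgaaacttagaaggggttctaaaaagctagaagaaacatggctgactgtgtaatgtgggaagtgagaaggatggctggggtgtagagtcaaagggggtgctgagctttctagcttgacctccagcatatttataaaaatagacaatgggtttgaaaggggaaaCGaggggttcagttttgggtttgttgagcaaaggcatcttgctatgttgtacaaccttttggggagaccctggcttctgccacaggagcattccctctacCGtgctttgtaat
Tbx21, chr11:96988436-96988735 (14 CG): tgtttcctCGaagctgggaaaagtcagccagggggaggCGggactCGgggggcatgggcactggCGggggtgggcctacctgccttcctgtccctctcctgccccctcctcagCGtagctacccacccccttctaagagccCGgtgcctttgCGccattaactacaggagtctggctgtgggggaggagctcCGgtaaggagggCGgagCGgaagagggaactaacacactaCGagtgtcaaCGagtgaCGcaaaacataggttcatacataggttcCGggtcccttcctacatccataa

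The member regions had a median width of 469 bp. Of the 165 regions, 33 overlapped the annotated start of their gene, 68 lay within 1000 bp of it, 52 lay between 1000 and 10000 bp away and 45 lay farther. Regions within 1000 bp of a start made up 41.2% of members and 22.5% of all autosomal regions. The Sox genes held 37 regions at 12 genes, the Tbx genes 24 at 7, the Lhx genes 16 at 5, the Nkx genes 14 at 7, the Six-family genes 13 at 5, and the Hoxa and Pax genes 12 each. The remainder lay at Hoxc and Gata (8 each), Dlx (7), Hoxb and Hoxd (6 each) and Irx (2). A total of 33 genes had 1 region, and 14 had 4 or more. The symbols Hoxd3os1 and Nkx2-2os, with 4 regions, are transcripts on the strand opposite to Hoxd3 and Nkx2-2, and 11 regions lay in or over a gene that is no member, such as Dmpk beside Six5 and Pinx1 upstream of Sox7. ATAC-seq reads carry no strand, so these regions cannot be ascribed to either gene.

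The members were rich in CpG sites. The median GC content was 56.7%, against 48.9% over all autosomal regions, and 50.3% of members were CpG-dense, that is, had at least 50% GC and a ratio of observed to expected CpG of at least 0.6, against 16.2%. Among regions within 1000 bp of a start, these shares were 75% for members and 62.5% for all genes.

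Values are reads in a region per 1000000 reads in all regions of a library (RPPM). In C, the median member had 2.97 RPPM in nB, 5.29 in GCB and 4.88 in BMPC, against medians of 5.12, 5.92 and 4.84 over all autosomal regions, so that the gap was widest in nB. At gene starts the levels were far apart. Member regions within 1000 bp of a start had medians of 2.93, 5.66 and 6.41 RPPM, against 30.0, 24.1 and 33.3 RPPM for such regions of all genes. Only 7.35% of the 68 members at starts reached 20 RPPM in nB, 5.88% in GCB and 10.3% in BMPC, whereas 60.3%, 56.2% and 62.5% of the 14482 autosomal start regions did. Dense CpG content did not go with a high level among members: CpG-dense members had medians of 3.02, 5.61 and 5.95 RPPM, against 38.8, 30.1 and 42.8 for all CpG-dense regions. These gaps are descriptions, without a test.

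**Figure D1:**
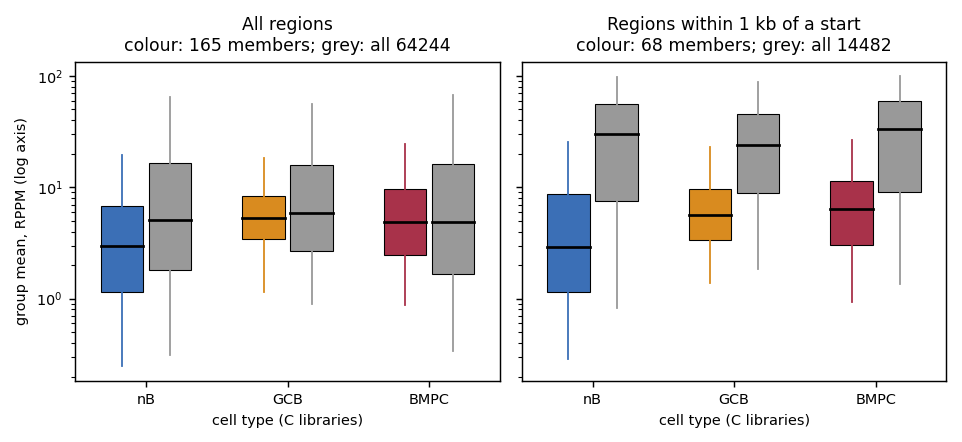
Accessibility in RPPM (log axis) in the 3 cell types of C mice for members and for all autosomal regions, at all distances and within 1000 bp of a start. Boxes are quartiles, lines medians and whiskers the 5th and 95th percentiles. At starts, the member medians of 2.93 to 6.41 RPPM lie below the medians of 24.1 to 33.3 for all genes.

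Members took up a small share of all reads in regions. This share was 0.0924% on average in C nB, 0.121% in C GCB and 0.122% in C BMPC, and 0.0902%, 0.125% and 0.115% in the same KO cells. Each nB library, between 0.0869% and 0.0951%, lay below every GCB library (0.118% to 0.130%) and every BMPC library (0.115% to 0.131%). Over the C and KO libraries of each cell type together, 74 members (44.8%) had their highest mean in GCB, 66 (40%) in BMPC and 25 (15.2%) in nB. The shares of all regions were 33.3%, 36.2% and 30.6%.

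The cell types were checked at their markers. The summed level at 5 nB marker genes with a region within 1000 bp of the start, of 6 listed, was 191 to 215 RPPM in nB, 109 to 155 in GCB and 43.3 to 51.1 in BMPC. At Tnfrsf17, the plasma cell receptor BCMA, the mean was 20 RPPM in C BMPC and 0.392 in C nB. The 6 GCB genes summed to 92.9 to 110 RPPM in nB, 149 to 150 in C GCB, 114 to 141 in KO GCB and 120 to 139 in BMPC, so this sum did not set KO GCB apart from BMPC. Of these genes, Bcl6 was highest in nB, and S1pr2 and Fas were higher in C BMPC (39.3 and 31.2 RPPM) than in C GCB (26.2 and 20.6). The sum of 6 of 7 BMPC genes was 207 to 233 RPPM in nB, 144 to 189 in GCB and 309 to 347 in BMPC. Among them Irf4 was higher in C nB than in C BMPC (57.4 against 44.1), and Sdc1 had no region within that distance. Of 7 T cell genes only Lat had such a region, with 19.2 to 23.6 RPPM in C nB, 8.90 to 9.68 in C GCB and 12.8 to 13.5 in C BMPC. Of 6 blood progenitor genes 3 had one (Kit, Flt3 and Meis1), with sums of 26.6 to 30.5 RPPM in C nB, 63.2 to 63.3 in C GCB and 56.2 to 61.6 in C BMPC, most of it at Flt3. In the same order, the myeloid genes (3 of 8) had 9.80 to 10.2, 13.6 to 15.4 and 16.2 to 18.2 RPPM, the erythroid genes (3 of 5) 57.1 to 62.1, 44.4 to 51.1 and 68.2 to 78.8, the NK cell genes (2 of 4) 3.20 to 5.60, 6.16 to 7.03 and 7.02 to 9.34, and the stromal genes (Col1a1 of 6) 19.0 to 22.7, 21.5 to 22.9 and 22.3 to 25.8. Their part in the results was not tested. Libraries held 4104875 to 6079018 reads in regions in nB, 907959 to 2280954 in GCB and 5357687 to 8232313 in BMPC, and mitochondrial DNA took 7.43% to 10.1% of these in GCB and 2.56% to 4.59% in the others. A level of 3 reads corresponds to 0.364 to 3.30 RPPM, so members near 0 in GCB are measured less well than in nB or BMPC.

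Many member regions were more accessible in GCB than in nB. From C nB to C GCB, 43 of 165 members rose and 7 fell, that is, passed an adjusted p of 0.01 and a 2-fold change in limma on log2(RPPM + 1). Over all 66177 regions 14.2% rose and 8.47% fell. The median log2 fold change was 0.54 over members and 0.05 over all regions. Rises came from the Six-family (9 of 13 regions), Tbx (8 of 24), Pax (4 of 12), Lhx (4 of 16), Hoxc (3 of 8), Nkx (3 of 14), Sox (3 of 37), Hoxd and Dlx (2 each), and from both Irx regions, with 1 each at Hoxa, Hoxb and Gata. The 7 falls were 4 regions of Sox4 and 1 each of Hoxb4, Hoxb6 and Tbx21. Without C GCB library F2, 27 members rose and 6 fell, 16.4% and 3.64% of them, against 10.2% and 7.70% of all regions. Fold changes on the log2(RPPM + 1) scale understate the change of regions near 0. The regions are a union of peaks called in each library. A region near 0 in nB thus entered through peaks of other cells, which favours a rise from nB. Likewise, a region near 0 in BMPC entered through peaks of other cells, which favours a fall toward BMPC. Members had a lower median level in C nB than all autosomal regions, and the part of this choice in their rises and falls was not tested.

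Because low regions may behave differently from high ones, members were also compared with others at a like level, a description chosen after values were seen. Between 2.81 and 8.18 RPPM, the middle range of the members, 30.1% of 83 members rose from nB to GCB and 3.61% fell, against 19.5% and 9.21% of 22910 autosomal regions, and 25.1% and 7.0% of 2186 regions within 1000 bp of a start. Toward BMPC, 28.9% of these members rose and 6.02% fell, against 22.1% and 24.0% of all regions and 29.0% and 13.7% of start regions at that level.

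**Figure D2:**
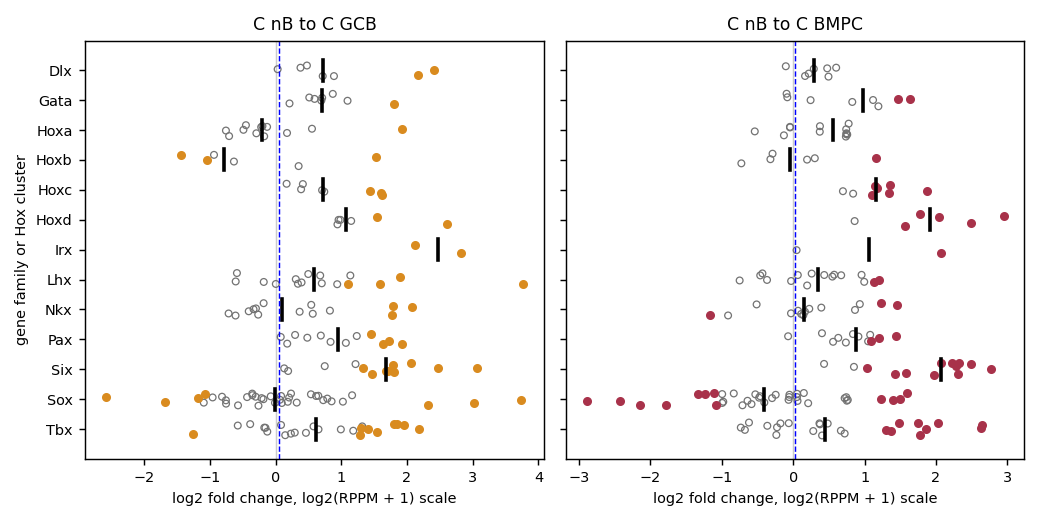
Log2 fold change (x axis, log2(RPPM + 1) scale) of each member region from C nB to C GCB and to C BMPC, by family (y axis). Filled points passed the test, black bars are family medians and the dashed line is the median of all regions. The Six-family genes have the highest median in BMPC, 2.06, and in GCB follow Irx, at 1.69 against 2.47 for its 2 regions. The 8 Sox regions that fell in BMPC lie at the left.

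The largest rise in GCB was in an exon of Lhx6, the LIM-homeodomain factor of forebrain interneurons (chr2:35946640-35947303, 12276 bp downstream of the start). C nB had 0.487, 1.32 and 1.86 RPPM, C GCB had 27.7 and 28.6, and C BMPC had 4.29, 4.56 and 3.11. Every GCB library exceeded every other library, and the 4 KO GCB libraries (24.2, 28.0, 27.2 and 23.8 RPPM) lay close to the C libraries. The log2 fold change from nB to GCB was 3.76 ± 0.28 (SE, limma adjusted p = 3.9e-11), and from GCB to BMPC it was -2.56 ± 0.28 (adjusted p = 2.3e-08).

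A region 33152 bp upstream of Sox7, a regulator of blood vessel and early blood formation, lay inside the gene Pinx1. It had 0.244, 0.565 and 0.186 RPPM in C nB, 16.7 and 16.4 in C GCB, and 0.13, 0.547 and 0.156 in C BMPC. The region was thus at or below 3 reads in every nB library and open in GCB only, with a log2 fold change of 3.73 ± 0.33 from nB (limma adjusted p = 9.3e-10) and -3.80 ± 0.33 on to BMPC (adjusted p = 3.4e-10). Near 0 in nB and BMPC, it entered the union of regions through peaks of GCB. That choice favours both changes, and its part in these p values was not tested. At the start of Sox7, C GCB had 7.48 and 3.75 RPPM and C nB at most 0.372, a rise of 2.33 ± 0.38 (adjusted p = 1.5e-05).

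The start of Sox1, a factor of neural progenitors, had 0.731, 0 and 0 RPPM in C nB, 6.16 and 12.2 in C GCB, and 0.13, 0.182 and 0.156 in C BMPC. With 3 reads in all of C nB, the ratio of GCB to nB was 44.7 (95% interval 14.2 to 226, counting error only). A region 11002 bp downstream of Irx4, a factor of heart ventricles, held 2 reads in all of C nB and 8.80 and 5.62 RPPM in C GCB, a ratio of 53.7 (13.7 to 462). Both regions fell again from GCB to BMPC, with log2 fold changes of -3.07 ± 0.37 and -2.77 ± 0.38 (limma adjusted p = 7.7e-08 and 7.9e-07). Both were near 0 in nB and BMPC, so the limit given for the Sox7 region holds for them too.

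The Dlx genes, which pattern the jaw and forebrain, gave a like profile at Dlx1 and Dlx6. In an exon of Dlx1, 49 bp downstream of the start, C nB had 2.19, 2.26 and 3.72 RPPM, C GCB 16.7 and 20.6, and C BMPC 5.59, 5.11 and 3.27. The KO GCB libraries had 29.7, 28.6, 17.5 and 22.4 RPPM, so that all 6 GCB libraries lay above all others. Log2 fold changes were 2.42 ± 0.28 toward GCB and -1.81 ± 0.28 from GCB to BMPC (limma adjusted p = 1.0e-07 and 5.0e-06). In Dlx6, 290 bp downstream of the start, C GCB had 5.72 and 4.22 RPPM and the libraries of C nB and C BMPC between 0 and 1.82 (2.16 ± 0.37 from nB, adjusted p = 3.5e-05), and its fall to BMPC was not called without C GCB library F2. The 3 regions of Dlx2 and the 2 of Dlx3 did not pass the test in any comparison between C cell types.

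An intron of Pax3, a factor of neural crest and muscle precursors, had 3.65, 4.14 and 2.23 RPPM in C nB, 12.3 and 14.1 in C GCB, and 3.12, 3.65 and 2.49 in C BMPC. GCB lay above both other cell types, with a log2 fold change of 1.73 ± 0.31 from nB and -1.80 ± 0.31 to BMPC (limma adjusted p = 5.6e-05 and 2.2e-05).

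A region over an exon of Nkx2-2, a factor of ventral neural tube and pancreas, lay 4990 bp upstream of its opposite-strand transcript Nkx2-2os and was among the 10 highest members. It had 11.0, 8.67 and 7.26 RPPM in C nB, 43.1 and 38.4 in C GCB, and 29.3, 21.7 and 27.4 in C BMPC. The groups did not overlap, and the log2 fold change was 2.08 ± 0.21 to GCB and 1.45 ± 0.19 to BMPC (limma adjusted p = 6.7e-09 and 1.5e-07).

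**Figure D3:**
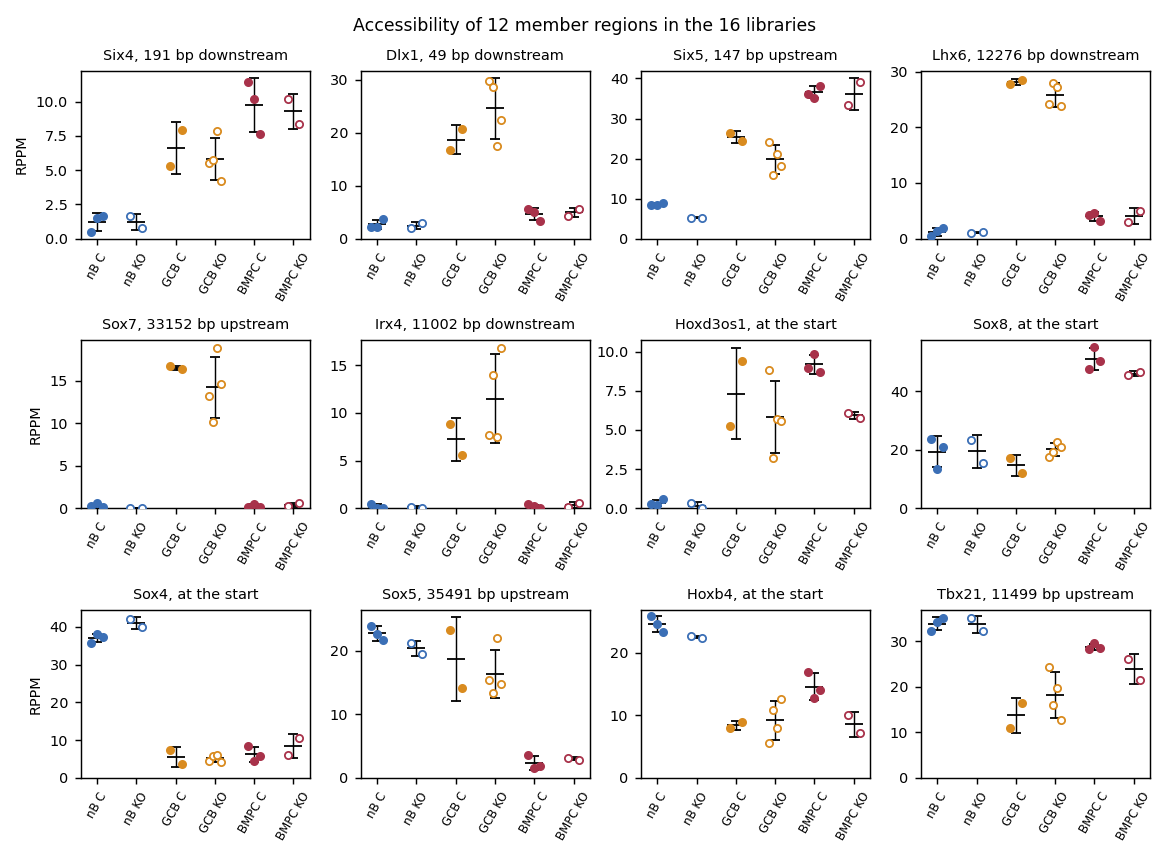
RPPM in each library at 12 member regions, with filled points for C, open points for KO and bars for the mean ± SD. Lhx6, Sox7 and Irx4 stand apart in GCB, Six4 and Six5 are high in GCB and BMPC, and Sox4 is high in nB.

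Members also rose toward BMPC, the end of the pathway. From C nB to C BMPC 46 members rose and 9 fell, against 18% and 20.1% of all regions, with a median log2 fold change of 0.48 over members and 0.03 over all regions. The Six-family genes (11 of 13 regions), the Hoxd cluster (5 of 6) and the Hoxc cluster (6 of 8) led. No region of Dlx or Hoxa passed the test in this comparison. Irx5, a factor of heart and retina, kept in BMPC the level it had in GCB: 6364 bp downstream of its start, C nB had 1.22, 0.188 and 1.12 RPPM, C GCB 7.92 and 5.62, and C BMPC 4.81, 8.94 and 6.23. GCB and BMPC overlapped and both lay above nB (2.12 ± 0.39 and 2.08 ± 0.35, limma adjusted p = 7.4e-05 and 1.0e-05). The start of Gata2, a regulator of blood stem cells, had 0.244, 0.377 and 0.558 RPPM in C nB, 2.64 and 1.41 in C GCB, and 3.90, 3.65 and 2.49 in C BMPC, and passed toward BMPC (1.63 ± 0.30, adjusted p = 4.3e-05).

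Six4, a homeodomain factor of muscle and kidney precursors, had 3 regions, and all 3 rose from C nB both to C GCB and to C BMPC. Their summed level in C was 3.18 ± 0.842 RPPM (SD, n = 3) in nB, 15.9 ± 0.577 (n = 2) in GCB and 25.4 ± 3.1 (n = 3) in BMPC. In KO the mean sums were 2.86, 14.4 and 25.3 RPPM. In an exon of Six4, 191 bp downstream of the start, C nB had 0.487, 1.51 and 1.67 RPPM, C GCB 5.28 and 7.96, and C BMPC 11.4, 10.2 and 7.63. Nonoverlapping groups gave log2 fold changes of 1.80 ± 0.33 and 2.31 ± 0.29 (limma adjusted p = 6.1e-05 and 1.2e-07).

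Six5, a related factor next to the kinase gene Dmpk, was open in nB already. The region 147 bp upstream of its start, in an exon of Dmpk, had 8.53, 8.29 and 8.93 RPPM in C nB, 26.4 and 24.4 in C GCB, and 36.2, 35.2 and 38.1 in C BMPC. The groups were apart at each step, and the log2 fold change from nB was 1.46 ± 0.18 in GCB and 1.97 ± 0.16 in BMPC (limma adjusted p = 3.0e-07 and 4.7e-11). The region over the start itself rose only toward BMPC: 8.04, 7.16 and 10.4 RPPM in C nB and 9.24 and 10.3 in C GCB overlapped, whereas C BMPC had 23.3, 28.6 and 30.7, a log2 fold change of 1.40 ± 0.25 from GCB (adjusted p = 3.7e-05).

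The 4 Hox clusters, whose genes specify position along the body axis, differed in direction. Over the 6 regions of the Hoxd cluster the summed level was 9.76 ± 2.41 RPPM in C nB, 32.2 ± 9.45 in C GCB and 48.3 ± 2.42 in C BMPC (SD, n = 3, 2 and 3). Over the 8 Hoxc regions it was 20 ± 4.37, 46.7 ± 0.487 and 55.5 ± 2.02 RPPM. The 12 Hoxa regions had 93.7 ± 14, 84.1 ± 1.71 and 120 ± 11.0 RPPM, and the 6 Hoxb regions had 48.5 ± 5.39, 25 ± 1.11 and 40.1 ± 5.45. Median log2 fold changes from nB to GCB were 1.07 (Hoxd), 0.72 (Hoxc), -0.21 (Hoxa) and -0.79 (Hoxb), and these signs held with TMM scaling and quantile normalization. Hoxa9, a factor of blood progenitors, had no member region.

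**Figure D4:**
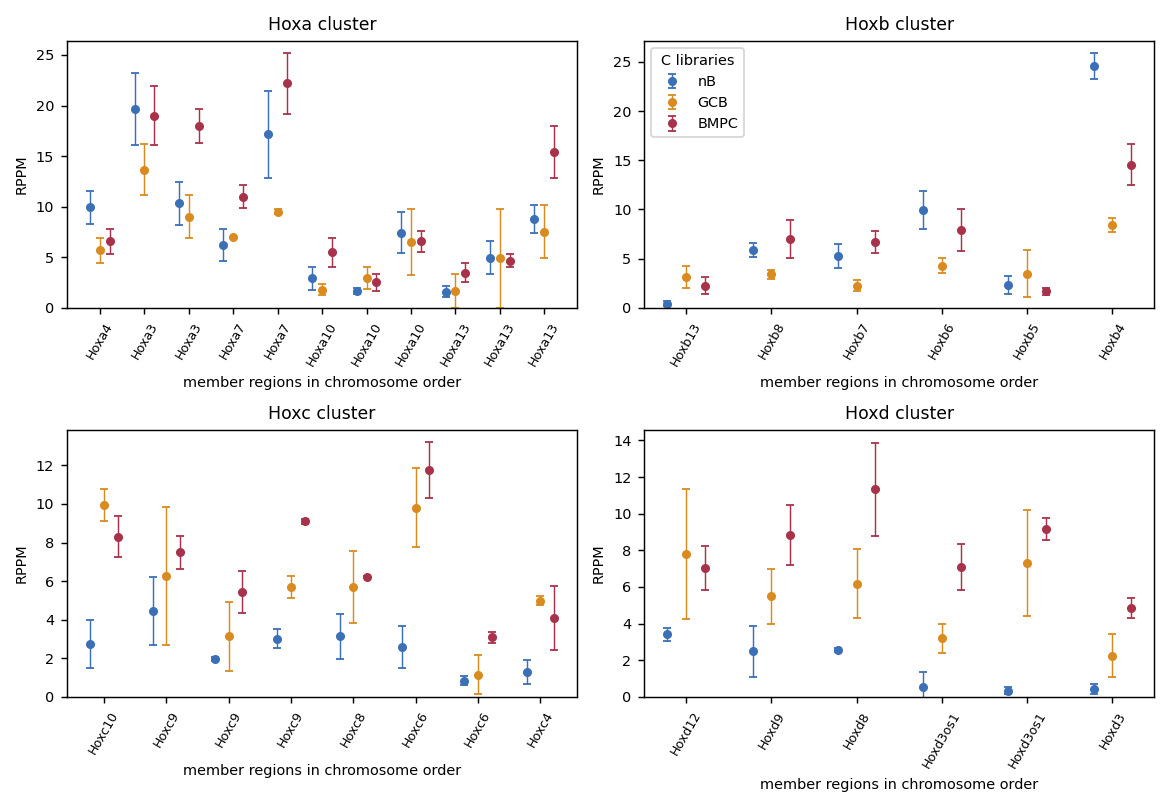
Mean ± SD of RPPM in the C libraries of nB, GCB and BMPC at the regions of each Hox cluster, in chromosome order, with 11 of the 12 Hoxa regions shown. Hoxd and Hoxc regions are lowest in nB, whereas Hoxb4 is highest there, at 24.6 RPPM.

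In the Hoxd cluster, the region shown above at Hoxd3os1 (chr2:74553775-74554289) had 0.244, 0.188 and 0.558 RPPM in C nB, 5.28 and 9.37 in C GCB, and 8.97, 9.85 and 8.72 in C BMPC. It was at or under 3 reads in every C nB library, and rose by 2.61 ± 0.34 and 2.95 ± 0.31 on the log2 scale (limma adjusted p = 6.3e-07 and 3.6e-09). At the start of Hoxd8, C nB had 2.44, 2.64 and 2.61 RPPM, C GCB 4.84 and 7.49, and C BMPC 9.49, 14.2 and 10.3. At Hoxd3, 197 bp downstream of the start, 0.731, 0.188 and 0.372 RPPM in C nB stood against 5.46, 4.56 and 4.52 in C BMPC (2.04 ± 0.39, adjusted p = 5.4e-05). The Hoxd8 region passed toward BMPC (1.77 ± 0.28, adjusted p = 3.6e-06) but not toward GCB (0.98 ± 0.31, adjusted p = 0.011), and the difference of those changes was the GCB to BMPC contrast, 0.79 ± 0.31 (adjusted p = 0.034).

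In the Hoxc cluster, a region 345 bp downstream of the start of Hoxc6 had 3.65, 1.51 and 2.61 RPPM in C nB, 8.36 and 11.2 in C GCB, and 12.0, 10.2 and 13.1 in C BMPC. The nB libraries lay below all others, and log2 fold changes were 1.62 ± 0.28 and 1.87 ± 0.25 (limma adjusted p = 2.8e-05 and 2.5e-07). The start of Hoxc10 had 2.44, 1.70 and 4.09 RPPM in C nB, 10.6 and 9.37 in C GCB, and 8.45, 9.31 and 7.16 in C BMPC, a rise of 1.60 ± 0.28 to GCB (adjusted p = 4.9e-05).

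Hoxb4, known for expanding blood stem cells, went the other way. Its start (chr11:96179563-96180345) had 25.8, 24.7 and 23.3 RPPM in C nB, 7.92 and 8.90 in C GCB, and 16.9, 12.8 and 14 in C BMPC. The nB libraries were highest and the GCB libraries lowest, without overlap, and the log2 fold change to GCB was -1.44 ± 0.24 (limma adjusted p = 2.5e-05). From nB to BMPC the change of -0.72 ± 0.22 had an adjusted p of 0.0059 but was under 2-fold. In the Hoxa cluster, the region 995 bp upstream of Hoxa7 had 21.2, 12.6 and 17.7 RPPM in C nB, 9.68 and 9.37 in C GCB, and 21.1, 25.5 and 19.9 in C BMPC. It passed only between GCB and BMPC (1.13 ± 0.28, adjusted p = 0.0014), and lost the call when C GCB library F2 or M1 was left out. A region 51 bp downstream of the start of Hoxa10 had 7.41 ± 2.02, 6.51 ± 3.24 and 6.57 ± 1.02 RPPM in C nB, GCB and BMPC and did not pass in any comparison, like every Hoxa10 region.

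Hoxb6 and Hoxb7, neighbours of Hoxb4, were also lowest in GCB. The region 4209 bp upstream of Hoxb6 had 11.9, 8.10 and 9.86 RPPM in C nB and 4.84 and 3.75 in C GCB (-1.04 ± 0.28, limma adjusted p = 0.0038), and it lost the call without C nB library 1 or 3 or either C GCB library. The region 1778 bp upstream of Hoxb7 had 2.64 and 1.87 RPPM in C GCB and 7.67, 5.47 and 7.01 in C BMPC (1.24 ± 0.31, adjusted p = 0.0016). That call was lost without C GCB library M1. The Hoxd region with the highest mean over the 6 groups of C and KO, 5.99 RPPM against 5.86 at Hoxd8, lay 1722 bp upstream of Hoxd12 and had 3.65, 3.58 and 2.98 RPPM in C nB, 5.28 and 10.3 in C GCB, and 7.02, 5.84 and 8.25 in C BMPC. Its nB libraries were below all others, yet neither change passed (0.94 ± 0.32 and 0.86 ± 0.28, adjusted p = 0.017 and 0.011).

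Among the Tbx genes, Tbx15, a factor of skin and muscle, had 3 regions, of which 3 rose from C nB to C GCB and 2 to C BMPC. Of the 5 regions of Tbx19, of the pituitary, 1 rose toward each, and 3 fell from C GCB to C BMPC. The 1 region of Tbx1, of the pharynx, rose toward both, with means of 2.69 RPPM in C nB, 8.78 in C GCB and 11.4 in C BMPC. At the start of Tbx15, C nB had 0.487, 0.942 and 2.05 RPPM, C GCB 8.36 and 8.43, and C BMPC 6.24, 6.75 and 4.98. Groups of nB and the other cells did not overlap (2.19 ± 0.36 and 1.75 ± 0.32, limma adjusted p = 1.6e-05 and 3.1e-05). A region 13190 bp upstream of Tbx19, in an exon of Sft2d2, had 1.22, 1.32 and 1.30 RPPM in C nB, 5.72 and 8.90 in C GCB, and 15.3, 10.4 and 13.9 in C BMPC, with a log2 fold change of 2.62 ± 0.25 to BMPC (adjusted p = 5.6e-10).

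Tbx21, which encodes T-bet, a regulator of T helper cells and activated B cells, had 7 regions that moved in different ways. The region 11499 bp upstream, shown above, had 32.2, 34.3 and 35 RPPM in C nB, 11.0 and 16.4 in C GCB, and 28.2, 29.6 and 28.5 in C BMPC. Only GCB was low, at -1.27 ± 0.20 from nB and 1.04 ± 0.20 on to BMPC (limma adjusted p = 1.1e-05 and 9.4e-05). Without C GCB library F2 the latter was 0.77 and below 2-fold. In an intron 2205 bp downstream of the start, C nB had 0.974, 0.188 and 0.931 RPPM, C GCB 7.04 and 1.87, and C BMPC 8.84, 11.1 and 8.25. BMPC lay above nB by 2.64 ± 0.42 (adjusted p = 5.3e-06). At the start, 4.28, 3.63 and 5.95 RPPM on average did not pass in any comparison.

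Falls from nB were led by the Sox genes. From C nB to C BMPC, 8 of the 9 regions that fell lay at Sox4, Sox5 and Sox13, and the ninth lay at Nkx2-3. The start of Sox4, a factor of early B and T cell development, had 35.8, 38.1 and 37.2 RPPM in C nB, 7.48 and 3.75 in C GCB, and 8.45, 4.56 and 5.76 in C BMPC. All nB libraries, including KO at 42.1 and 40.0, lay far above the others, with log2 fold changes of -2.58 ± 0.27 to GCB and -2.42 ± 0.24 to BMPC (limma adjusted p = 1.2e-08 and 1.3e-09). Summed over the Sox4 regions, C nB had 82.4 RPPM, C GCB 22.4 and C BMPC 24.4 on average.

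A region 35491 bp upstream of Sox5, a factor of cartilage, stayed open in GCB and fell only in BMPC. It had 23.9, 22.6 and 21.6 RPPM in C nB, 23.3 and 14.1 in C GCB, and 3.64, 1.46 and 1.87 in C BMPC. The nB and GCB values overlapped, and the change from GCB to BMPC was -2.58 ± 0.26 (limma adjusted p = 5.1e-09). At the Sox5 start itself, 16.8, 15.9 and 10.1 RPPM on average differed by less than 2-fold. In Sox13, a relative of Sox5, an intron region had 10.2, 11.1 and 14.3 RPPM in C nB and 5.33, 3.83 and 3.27 in C BMPC, without overlap (-1.33 ± 0.31, adjusted p = 0.00056). The Nkx2-3 region, 11580 bp downstream of the start, had 6.09, 5.65 and 7.07 RPPM in C nB and 3.25, 1.64 and 2.02 in C BMPC (-1.16 ± 0.29, adjusted p = 0.0011), and lost the call without C BMPC library 2.

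From C GCB to C BMPC, 7 members rose and 19 fell, 4.24% and 11.5% of them. Both shares were below those of all regions, 11.3% and 19.1%. With quantile normalization the split was 14 and 13 among members, and 9585 and 9871 among all 66177 regions. The direction thus depends on the scaling, for members as for all regions. Besides the GCB-high regions above, the falls included an intron of Lhx4, a pituitary factor (4.40 and 6.56 RPPM to 1.04, 0.730 and 0.467, -1.88 ± 0.37, limma adjusted p = 0.00012). A region 27220 bp downstream of the start of Tbx19 went from 4.84 and 2.34 RPPM to 0, 0.182 and 0.156, with 2 reads in all of C BMPC and a ratio of GCB to BMPC of 35.6 (95% interval 8.36 to 319, counting error only). That call was lost without C GCB library F2. In all, 11 members fell and 4 rose without this library, against 14.7% and 10.7% of all regions. Among the rises, Lhx9, a factor of gonad and brain, had 3.52 and 7.49 RPPM in C GCB and 13.4, 13 and 12.9 in C BMPC 440 bp downstream of its start (1.19 ± 0.28, adjusted p = 0.00081), a call also lost without library F2. The largest rise was at the start of Sox8, a factor of gonad and glia: 23.6, 13.4 and 21.0 RPPM in C nB and 17.2 and 12.2 in C GCB overlapped, and 47.7, 55.3 and 50.3 in C BMPC lay above both (1.75 ± 0.20, adjusted p = 5.2e-08).

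A few members were open in all cells. The start of Sox12, a SoxC relative of Sox4, had the highest level of all members, with 53.8, 56.7 and 58.8 RPPM in C nB, 37.4 and 51.5 in C GCB, and 56.3, 58.8 and 60.7 in C BMPC. The region 618 bp upstream of Gata3, the T helper cell regulator, had 27.8, 24.1 and 26.4 RPPM in C nB, 38.3 and 47.8 in C GCB, and 29.5, 19.3 and 25.4 in C BMPC. GCB lay above both other cell types there, though by less than 2-fold (0.69 ± 0.17, limma adjusted p = 0.0019). At the starts of Gata3 and of Lhx2, a factor of forebrain and hair follicle, no comparison between C cell types passed, with mean levels of 6.15, 7.31 and 7.38 RPPM and of 2.38, 3.16 and 1.71 RPPM. An intron of Pax7, a factor of muscle stem cells, rose in BMPC, from 14.9, 15.3 and 12.7 RPPM in C nB to 33.3, 33.2 and 35.7 (1.20 ± 0.17, adjusted p = 1.1e-06).

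Loss of the de novo methyltransferases was then examined at the same regions. No member passed the limma test between C and KO in nB, GCB or BMPC, where 0%, 0.0317% and 0.104% of all regions did. At an unadjusted p under 0.05, 0 members were higher and 2 lower in KO nB, 7 and 6 in KO GCB, and 8 and 11 in KO BMPC. These are 1.21%, 7.88% and 11.5% of members, against 1.67%, 11.8% and 9.55% of all regions. The counts in BMPC became 13 higher and 6 lower without C library 1, 3 and 7 without C library 2, 4 and 8 without C library 3, 5 and 9 without KO library 1, and 2 and 2 without KO library 2. Median differences (KO minus C, log2) were -0.01, 0.03 and -0.05 over members and -0.01, 0.03 and 0.03 over all regions. No interaction of genotype with cell type was called at a member by limma, where 0% of all regions passed, nor by edgeR or DESeq2. At an unadjusted p under 0.05, the limma interaction was positive at 2 and negative at 4 members for BMPC against nB, and positive at 6 and negative at 2 for GCB against nB, 3.64% and 4.85% of members against 5.24% and 6.21% of all regions.

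By tests on reads recovered from the RPPM values, few members passed in BMPC. The edgeR likelihood ratio test called 3, against 2.53% of all regions, the edgeR quasi-likelihood test 1, against 1.81%, and DESeq2 none. Tbx6, a factor of the embryonic trunk, had 3.64, 2.55 and 2.65 RPPM in C BMPC and 8.02 and 6.16 in KO BMPC in a region 491 bp upstream of its start. The intron of Tbx21 had 8.84, 11.1 and 8.25 RPPM in C and 4.13 and 2.43 in KO. A region 19567 bp upstream of Pax3 had 1.56, 2.19 and 0.311 RPPM in C and 0.243 and 0 in KO, 2 reads in all, a ratio of C to KO of 9.02 (95% interval 2.26 to 78.4, counting error only). C and KO libraries did not overlap in these 3 regions, whose limma differences were 1.04 ± 0.38, -1.30 ± 0.47 and -0.98 ± 0.39 (adjusted p = 0.27, 0.26 and 0.34).

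**Figure D5:**
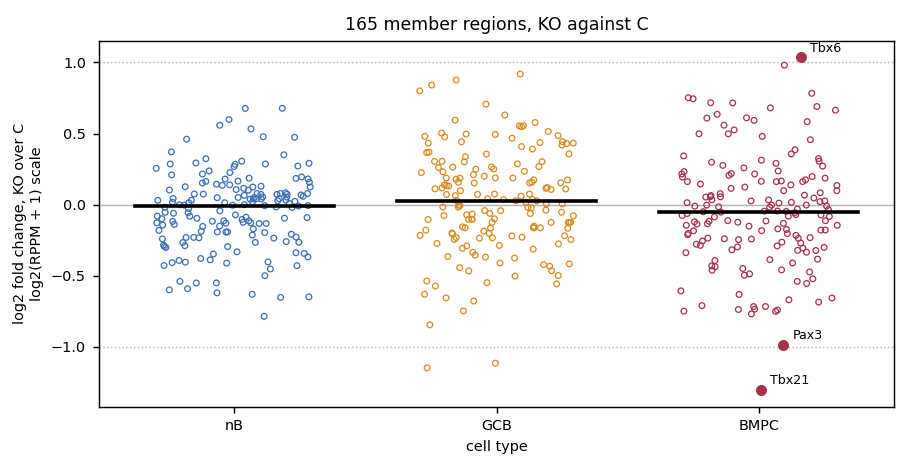
Log2 difference between KO and C (limma) of the 165 members in nB, GCB and BMPC. Black bars are medians, and filled, named points passed the edgeR likelihood ratio test. The medians of -0.01, 0.03 and -0.05 lie near 0.

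The smallest unadjusted p values between genotypes were spread over families. In nB it was the Six5 region beside the start, at 8.53, 8.29 and 8.93 RPPM in C and 5.26 and 5.12 in KO (-0.63 ± 0.18, limma adjusted p = 1). In GCB it was a region 40693 bp upstream of Nkx2-3, a homeobox gene of spleen and gut lymphoid tissue, at 7.04 and 6.56 RPPM in C and 14.3, 14, 11.8 and 11.9 in KO (0.84 ± 0.23, adjusted p = 0.12). In BMPC it was the start of Sox12, at 56.3, 58.8 and 60.7 RPPM in C and 45.1 and 39.0 in KO (-0.47 ± 0.13, adjusted p = 0.097). The groups did not overlap in any of these, and none passed after adjustment. Next in GCB were the start of Gata2, at 2.64 and 1.41 RPPM in C and 4.41, 5.09, 3.51 and 5.59 in KO (0.92 ± 0.32, adjusted p = 0.25), and a region 2822 bp upstream of Gata4, a heart factor, at 2.64 and 2.34 in C and 0, 1.91, 1.32 and 0 in KO (-1.11 ± 0.41, adjusted p = 0.27).

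The Hox regions were lower on balance in KO BMPC. Of 32 Hox regions 26 had a negative difference, whereas 54.2% of all regions had a positive one. In 14 Hox regions both KO libraries lay below all 3 C libraries, against 13.8% of all regions, and in 2 above them, against 20%. Differences were negative in 11 of 12 Hoxa, 5 of 6 Hoxb and 6 of 6 Hoxd regions, but in only 4 of 8 Hoxc regions. The median difference of the Hox regions was -0.30, against 0.03 over all regions. With TMM scaling it was -0.36 and with quantile normalization -0.43, and it lay between -0.36 and -0.25 when each BMPC library was left out in turn. Summed levels were 112 to 133 RPPM in C and 97.9 to 102 in KO for Hoxa, 34.3 to 45.1 and 25.6 to 29.2 for Hoxb, 53.8 to 57.7 and 52.4 in both KO libraries for Hoxc, and 46.6 to 51.1 and 33.3 to 33.6 for Hoxd. KO lay below C in all 4 sums, yet no Hox region passed the test. Hoxb4 had 16.9, 12.8 and 14 RPPM in C and 9.96 and 7.09 in KO (-0.72 ± 0.24, limma adjusted p = 0.21), and the Hoxa7 region 1052 bp downstream of the start had 12.2, 10.8 and 9.97 in C and 6.68 and 5.41 in KO (-0.77 ± 0.27, adjusted p = 0.24). The summed level of the nB marker genes was 43.3 to 46.3 RPPM in C BMPC and 51.0 to 51.1 in KO BMPC, that of the T cell genes (Lat only) 12.8 to 13.5 and 7.90 to 10.1, that of the NK cell genes 7.02 to 9.34 and 4.29 to 4.98, and that of the progenitor genes 56.2 to 61.6 and 43.6 to 49.1. At the other lists C and KO overlapped. In the same order, the BMPC genes had 309 to 347 and 323 to 324, and the GCB genes 120 to 139 and 131 in both KO libraries. The erythroid genes had 68.2 to 78.8 and 72.8 to 73.1, the myeloid genes 16.2 to 18.2 and 17.5 to 18.2, and the stromal gene Col1a1 22.3 to 25.8 and 21.7 to 23.9. The progenitor genes moved in different ways, with means in C and KO of 47.6 and 30.2 RPPM at Flt3 and of 5.93 and 12.7 at Kit. Their part in the result was not tested. In nB 15 and in GCB 17 of the 32 Hox differences were negative, whereas 47.3% and 53.8% of all regions had a positive difference there.

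Changes between cell types occurred in both genotypes, which share no library. From nB to GCB 49 members rose and 5 fell in KO, against 18.4% and 7.84% of all regions. Of the 43 that rose in C and the 49 that rose in KO, 37 were the same regions, 86.0% and 75.5% of them. From nB to BMPC 38 rose and 11 fell in KO, against 18.4% and 16.9% of all regions, and 35 of the rises were shared, 76.1% of those in C and 92.1% of those in KO. The KO counts rest on pairs of libraries: 22 rose and 5 fell without KO nB library 1, 23 and 7 without KO nB library 2, 25 and 7 without KO BMPC library 1, and 22 and 6 without KO BMPC library 2. In these fits 13.3% to 15.2% of members rose and 3.03% to 4.24% fell, against 13.9% to 14.1% and 12.9% to 14% of all regions, so the share that rose was near that of all regions. No member called in C was called in the opposite direction in KO, and of the 7 regions that fell from nB to GCB in C, only Hoxb6 had the opposite sign in KO.

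Genes outside these families were counted in the same way. Developmental factors of other families, such as Pitx, Otx, Neurog and Foxa genes, had 93 regions at 42 of 67 listed genes. Of these, 27 rose and 2 fell from C nB to C GCB (median 0.67), and 20 rose and 6 fell to C BMPC (median 0.26). These are 29.0% and 2.15% to GCB, against 14.2% and 8.47% of all regions, and 21.5% and 6.45% to BMPC, against 18% and 20.1%. Protein partners of the member families, such as the Meis and Pbx cofactors of Hox proteins, the Ldb and Lmo partners of Lhx and Gata proteins and the Eya partners of Six-family proteins, had 79 regions at 20 of 26 genes. Of these, 6 rose and 10 fell to GCB (median -0.09) and 8 rose and 13 fell to BMPC (median -0.08), that is, 7.59% and 12.7%, and 10.1% and 16.5%. No region of either list passed the limma test between C and KO.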

How the data were processed

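ATAC-seq was performed on sorted nB, GCB and BMPC. The authors mapped reads to mm9, called peaks in each library and took the union of the peaks, and the submitters' processing notes name Bowtie 1.1.1, Picard 1.127, MACS2 2.1.0.20140616 and edgeR 3.12.1. The deposited values are RPM-type values, reads per 1000000 reads in union regions (RPPM). The table also holds the authors' comparisons (log2 fold changes, likelihood ratios, p-values, adjusted p-values and calls), none of which was used. Whole reads were recovered for 100% of values within 0.01 of a read.

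Values were tested on log2(RPPM + 1) with limma 3.58.1 (R 4.3.3, trend), with a mean per group over 16 libraries and Benjamini-Hochberg adjustment over 66177 regions. The limits for a call were those of the study, an adjusted p of 0.01 or less with at least 2-fold change. One of 17 labelled samples, a KO BMPC sample, was not analysed here. edgeR 4.0.16 and DESeq2 1.42.0 were run on recovered reads, and other pseudocounts, scalings, filters and each library left out served as alternatives. The limma test and both edgeR tests were tried on simulated reads with known changes in KO BMPC, and the other steps were not. Replicates are separate samples by their labels. nB and BMPC came from mice of 1 sex each. Intervals of read ratios are exact (95%) and cover counting error only.

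Members and gene lists were chosen with earlier results of these data known. Named regions were those with the largest changes among called regions with nonoverlapping libraries (up to 10 per comparison and direction, the first of each gene), those with the 3 smallest p between genotypes in each cell type or called by the edgeR likelihood ratio test, genes known in blood, the most open region of each Hox cluster and the 10 most open members. Some genes that these rules name are not reported here. Sequences and base content were read from the mm9 genome.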

Additional observations from a re-analysis of the deposited data

Results flagged for a closer look

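In 3 of the 52 named regions, the only ones checked, 1 of the 4 KO GCB libraries stood apart from the rest by Dixon's criterion at the 95% level. Chance alone meets this criterion in about 1 in 20 groups, so a few of 52 regions would meet it by chance. At the Tbx19 region 27220 bp downstream of the start, pool M1 had 7.69 RPPM and the others 2.20 to 2.63. At the Nkx2-3 region 2082 bp downstream of the start, pool F1 had 18.7 RPPM and the others 8.39 to 9.21. At the Nkx2-2os region 4990 bp upstream of the start, pool F2 had 60.5 RPPM and the others 38.5 to 41.9.

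In 2 of the 52 named regions, the only ones checked, the genotype difference had opposite signs in a pair of cell types, with libraries that did not overlap in either. In BMPC alone, KO libraries lay above all C libraries at 20% of all regions and below them at 13.8%. How often all regions show such a pair was not counted, so these 2 cannot be called unusual. The region 4209 bp upstream of Hoxb6 was higher in KO than in C GCB (0.58 on the log2 scale) and lower in KO than in C nB (-0.59), a difference of 1.17. The start of Sox8 was higher in KO GCB (0.44) and lower in KO BMPC (-0.14), a difference of 0.59. Neither interaction passed the limma test after adjustment.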

How the results depend on the processing

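The counts of called members, 50 from nB to GCB, 55 from nB to BMPC and 26 from GCB to BMPC, were 42 to 61, 55 to 78 and 22 to 36 under TMM scaling, quantile normalization, DESeq2, both edgeR tests, a pseudocount of 0.1 RPPM and a minimum mean of 1 RPPM. With a pseudocount of 5 RPPM they were 19, 23 and 9, since the larger pseudocount shrinks the folds of low regions. Leaving out 1 library gave 33 to 59, 47 to 58 and 15 to 28, and both 33 and 15 came without C GCB library F2, where a single C GCB library was assumed to vary like the other groups. In KO, the 54 members called from nB to GCB and the 49 from nB to BMPC were 20 and 19 with a pseudocount of 5 RPPM, 40 to 59 and 27 to 52 without 1 library, and 47 to 61 and 37 to 68 under the other alternatives, which for KO were chosen after seeing the data, as was leaving out libraries for the Hox regions. Between C and KO no member was called in nB (0 to 0 without a library), GCB (0 to 0) or BMPC (0 to 0), whereas in BMPC the edgeR quasi-likelihood test called 1 and the likelihood ratio test 3. Quantile normalization moved the median of all regions from 0.05 to -0.06 (nB to GCB) and from -0.06 to 0.09 (GCB to BMPC), and members lay above that median by 0.37 and 0.22, against 0.49 and 0.11 without it. Within 10000 bp of a start, members held 0.0735%, 0.0897% and 0.0957% of reads in C nB, GCB and BMPC and 0.0716%, 0.0908% and 0.0882% in KO. Of 56 named values none reversed, 8 were no longer called without some library and 13 with a pseudocount of 5 RPPM. C and KO GCB pools share the numbers F2 and M1, and their deviations from the group means had correlations of 0.038 and 0.068. With 2 C GCB libraries these deviations mirror each other, and C pool F2 with KO pool F1 gave 0.042. The check thus cannot show whether pools of the same number are related. A fit with the replicate block called 0 members and 9 of all regions, against 21 without it. The block fit used the GCB libraries only and the other all 16 libraries, so these counts are not like for like. GCB libraries had the fewest reads and limit what can be seen at low regions.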
